A study of Homo sapiens with 8 samples.

Results

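TXNIP (thioredoxin-interacting protein) is an alpha-arrestin, one of a family of adaptor proteins that carry an arrestin fold and link cell-surface cargo to ubiquitin ligases. The genes described are TXNIP, its relatives ARRDC1, ARRDC2, ARRDC3 and ARRDC4, and MLXIP and MLXIPL, whose products switch TXNIP on. They were chosen by name, with earlier results of these data known. Each was read from the only probe set that carries its symbol alone. Thus 7 of the 18377 genes with a probe set of their own are covered, and none of the 7 had to be left out. No probe set of these 7 genes is shared with another gene.

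RNA came from A549 cells, an established human lung adenocarcinoma line with features of type II alveolar epithelium. All cells were at the air-liquid interface, were exposed for 4 hr and were collected 9 hr later. The PCA (photochemically altered) pollutants, labelled an aged urban mix, were given in the evening, and the evening control cells breathed humidified incubator air over those hours. The primary pollutants, labelled a fresh urban mix, were given in the morning, with a morning control treated in the same way. Each of the 4 groups has 2 arrays, which the methods call biological duplicates. The methods describe 1 morning and 1 evening exposure, and whether the arrays of a group come from separate runs is not stated. P-values therefore measure only the spread between these arrays, and mixture, time of day and exposure run cannot be told apart. Values are log2 signals of Human Gene 1.0 ST arrays, 8 in all, and levels are not compared between genes because each probe set has its own affinity.

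Thioredoxin is a small protein that keeps other proteins reduced, and TXNIP binds it and holds it inactive. TXNIP also draws glucose transporters from the cell surface, so that it acts as a brake on glucose uptake. Its transcription follows glucose supply: MLXIP (MondoA) and MLXIPL (ChREBP) each pair with MLX and bind a carbohydrate response element, a pair of E-box-like sequences with a short spacer, just upstream of the gene. ARRDC4 is a further known target of these factors, and ARRDC2, ARRDC3 and TXNIP are also known as genes that respond to glucocorticoids or growth arrest in some cells.

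The stretches upstream of TXNIP and ARRDC4, the pair of alpha-arrestins known as MLXIP targets, are given because they hold the sequence matches that set these genes apart among the 7. Both are the 250 bases before the annotated start in RefSeq (GRCh38.p14), read 5′ to 3′ along the gene, at chr1:145996580-145996829 on the minus strand for TXNIP and chr15:97960453-97960702 on the plus strand for ARRDC4. Capitals mark matches to the carbohydrate response element (searched as 2 copies of CACGNG with 5 bases between them), to CACGTG (the E-box) and to CCAAT, which reads ATTGG on the opposite strand.
TXNIP: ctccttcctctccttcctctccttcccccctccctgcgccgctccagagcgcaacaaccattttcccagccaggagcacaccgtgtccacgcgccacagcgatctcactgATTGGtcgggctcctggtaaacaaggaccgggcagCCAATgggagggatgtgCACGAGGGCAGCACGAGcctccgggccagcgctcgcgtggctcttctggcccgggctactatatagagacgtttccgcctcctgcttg
ARRDC4: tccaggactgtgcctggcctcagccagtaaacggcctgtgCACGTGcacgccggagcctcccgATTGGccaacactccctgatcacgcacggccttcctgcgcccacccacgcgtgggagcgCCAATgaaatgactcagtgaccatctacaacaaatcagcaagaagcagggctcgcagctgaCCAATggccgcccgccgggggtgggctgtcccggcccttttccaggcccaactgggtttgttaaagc

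All of the family's windows were searched on both strands, each running from 250 bases before to 50 bases after a start. RefSeq gives 10 such windows for the 7 genes. The TXNIP element, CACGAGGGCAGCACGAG, lay 88 to 72 bases upstream of the start and was the only match to that pattern in the 10 windows. The pattern was found in 20 of 35116 windows of this length in the annotation (0.057%). A CACGTG can lie inside the element, but the TXNIP match holds none, and the only CACGTG of the family was the one 210 to 205 bases upstream of ARRDC4 (7.26% of all windows hold one). CCAAT was present in 6 of the 10 windows, with 2 copies at TXNIP and 3 at ARRDC4, and in 34.6% of all windows. GTAAACA, the forkhead sequence, stood 124 to 118 bases upstream of TXNIP and in 1 window of ARRDC3, against 3.42% of all windows. These matches describe the sequence and not a bound site.

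**Figure D1:**
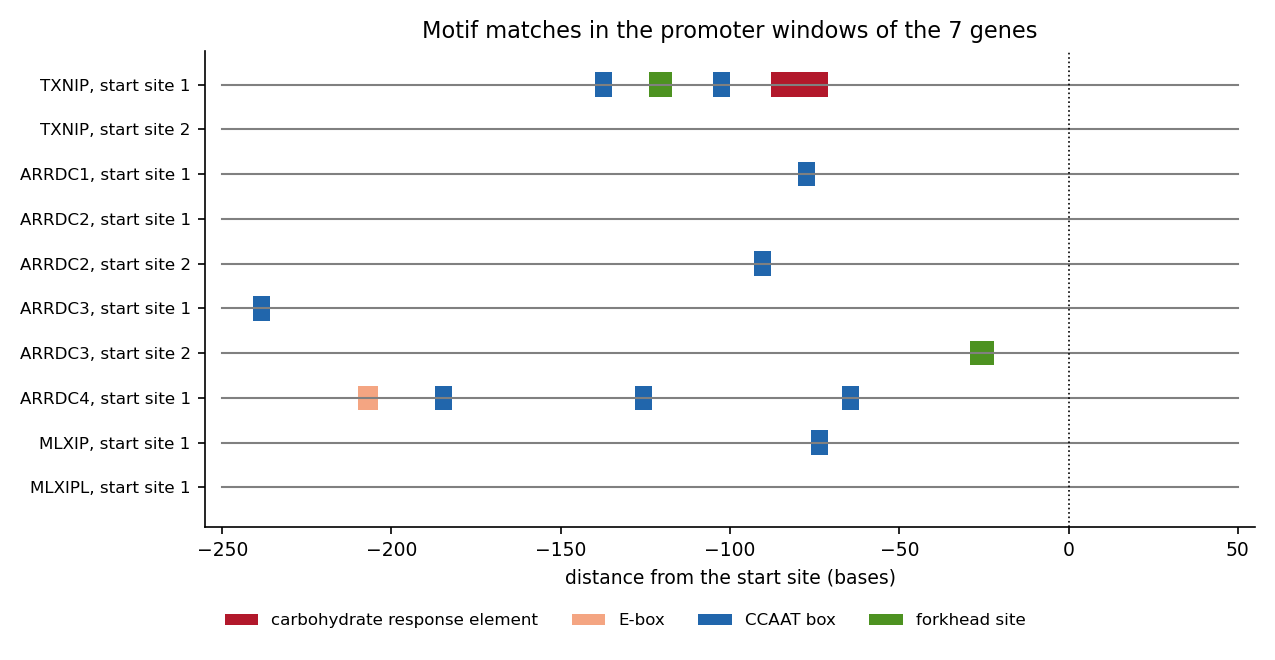
Positions of the 4 sequence patterns in the 10 promoter windows of the 7 genes, plotted as distance in bases from the annotated start. Only the first TXNIP window holds the carbohydrate response element, 88 to 72 bases upstream, and only ARRDC4 holds a CACGTG.

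TXNIP fell after the PCA pollutants. Its log2 signal was 6.32 and 6.63 on the PCA arrays, against 7.64 and 7.87 on the evening control arrays. All PCA arrays were below all evening control arrays, and the spread within a group was 0.22 for the PCA pollutants and 0.16 for the evening control (SD, n = 2 each). The log2 fold change was -1.28 (SE 0.14, 95% interval -1.60 to -0.96), or 2.43-fold lower, with an adjusted p of 0.00244 (limma, Benjamini-Hochberg over all probe sets tested). In linear units its mean signal was 88.9 after the PCA pollutants and 216 in the evening control, above the signal of 30 that was required. Passing that limit does not show expression, as markers of other cell types also passed it. CD14, a leukocyte marker, was at 99.0 to 130 over the arrays. A lower signal from fewer cells that express a gene cannot be told apart from less of its RNA per cell in bulk samples.

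Of the 7 genes, TXNIP was the only one past the test, which asks for an adjusted p under 0.05 and a change of at least 1.5-fold. Of all 17470 genes tested, 3.53% were past it after the PCA pollutants (617 genes: 464 lower, 2.66%, and 153 higher, 0.876%), and 1 of 7 is too few to read against that share. Its change was the 14th lowest of the 17470, among the lowest 0.0801%. The call was lost when the change itself was tested against the 1.5-fold limit with limma's treat (adjusted p = 0.181). The direction held under every alternative run, and the change ranged between -1.43 and -0.94 on the log2 scale.

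**Figure D2:**
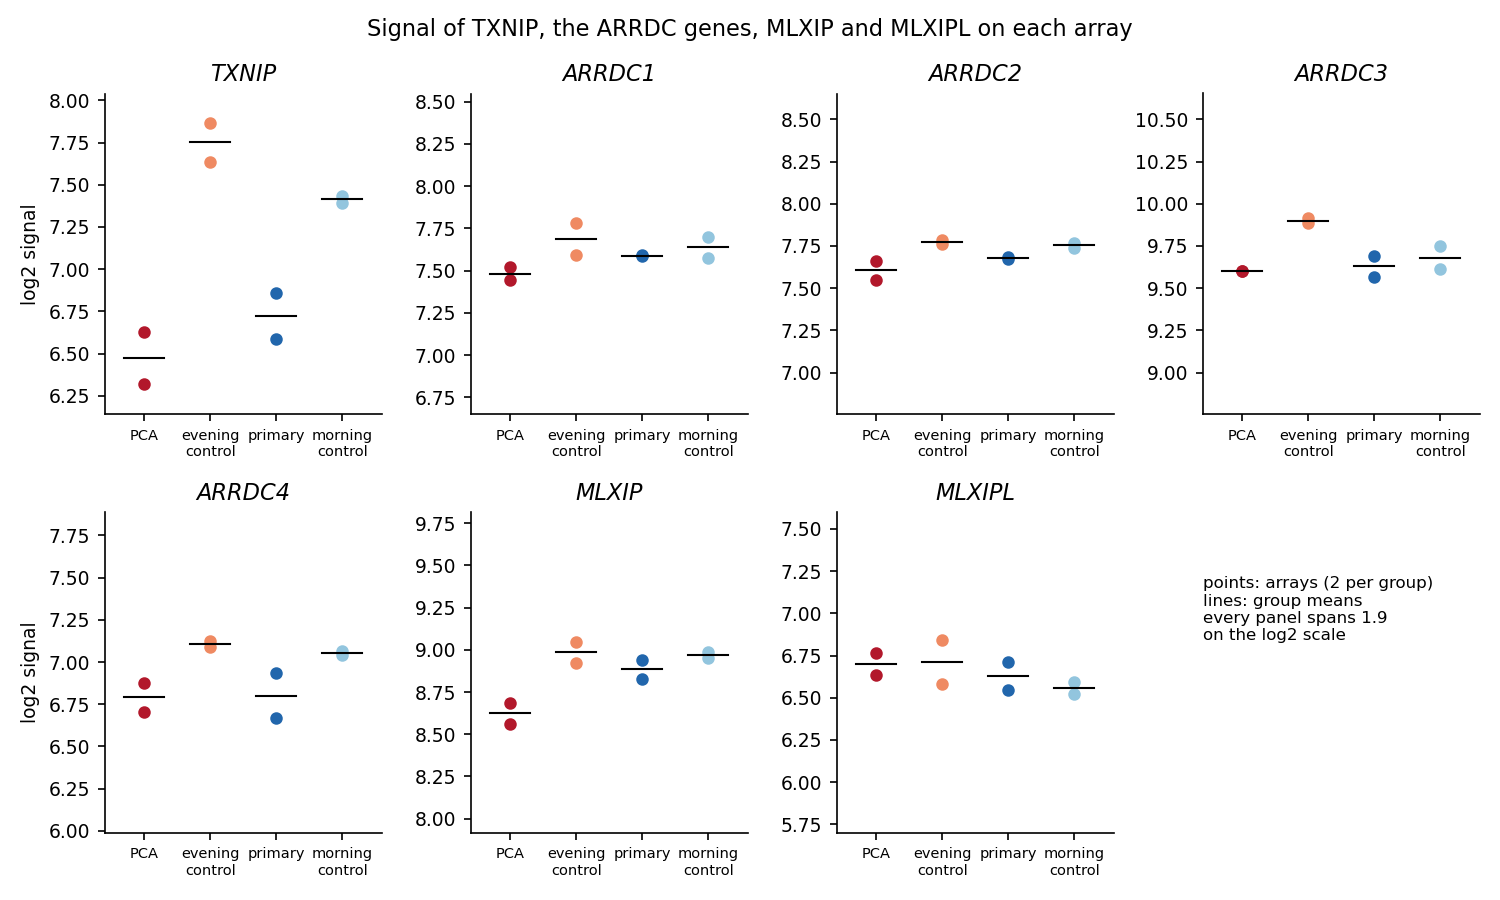
Log2 signal of each of the 7 genes on each of the 8 arrays, 2 points per group, 1 panel per gene, with a bar at each group's mean. TXNIP shows the widest gaps, with the PCA arrays at 6.32 and 6.63 and the evening control arrays at 7.64 and 7.87.

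TXNIP was also lower after the primary pollutants, but it did not pass the test there. Its log2 signal was 6.59 and 6.86 on the primary arrays, against 7.43 and 7.39 on the morning control arrays, with no overlap. The log2 fold change was -0.69 (SE 0.14, 95% interval -1.01 to -0.37, 1.61-fold lower) at an unadjusted p of 0.00120 and an adjusted p of 0.369 in the limma fit across all genes. This was the third lowest change of 17381 genes, among the lowest 0.0173%. No gene of the whole array was called after the primary pollutants by limma (0%), although 1373 had an unadjusted p under 0.05. The analysis of variance that the methods name, left unadjusted and with the same fold limit, called TXNIP among 14 genes. The methods also set a q-value limit of 0.05, which was not applied in that run. With it, the study lists TXNIP as significantly lower after the primary pollutants, at the same 1.61-fold.

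The responses of TXNIP to the mixtures were then set against each other. The PCA response less the primary response was -0.59 on the log2 scale (SE 0.19, 95% interval -1.04 to -0.13), with an unadjusted p of 0.0177 and an adjusted p of 0.187 in limma, which did not pass. Part of this difference lay in the controls. TXNIP averaged 7.75 ± 0.16 in the evening control and 7.41 ± 0.028 in the morning control (log2 signal, SD, n = 2 each), a difference of 0.34 (95% interval 0.017 to 0.66, unadjusted p = 0.0413 and adjusted p = 0.9996 in limma). The exposed groups were closer to each other, at 6.47 ± 0.22 after the PCA pollutants and 6.72 ± 0.19 after the primary pollutants (log2 signal, SD, n = 2 each), and their arrays overlapped. In order of mean level the 4 groups ran evening control, morning control, primary pollutants and PCA pollutants. Against the morning control, the PCA arrays gave -0.94 in place of -1.28, and against the evening control the primary arrays gave -1.03 in place of -0.69.

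The ARRDC genes had smaller values, and none of the 4 passed the test after the PCA pollutants. For every one of them both PCA arrays were below both evening control arrays, as they were for 36.6% of all genes tested. Their log2 fold changes lay between -0.32 and -0.17, against a median of -0.0017 over all genes, and stayed below 0 under every alternative run. Scaling to ribosomal protein genes brought them nearer 0, at -0.066 for ARRDC1, -0.027 for ARRDC2, -0.16 for ARRDC3 and -0.18 for ARRDC4. TXNIP's interval did not overlap with that of any ARRDC gene.

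ARRDC3, which is known to bring beta-adrenergic receptors and integrin beta 4 to NEDD4-type ligases, had log2 signals of 9.60 and 9.60 on the PCA arrays, against 9.91 and 9.89 on the evening control arrays. Its log2 fold change of -0.30 (SE 0.080) had an adjusted p of 0.0377 in limma, but at 1.23-fold it was short of the fold limit. Without that limit, 14.1% of all genes were on the lower side at this adjusted p. ARRDC4, the closest relative of TXNIP in the family and likewise linked to glucose transporters, had log2 signals of 6.88 and 6.71 on the PCA arrays, against 7.09 and 7.13 on the evening control arrays. Its change was -0.32 (SE 0.10, limma adjusted p = 0.0673). These 2 genes had the lowest values of the 4.

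ARRDC1, which drives the budding of small vesicles from the cell surface, had log2 signals of 7.52 and 7.44 on the PCA arrays, against 7.60 and 7.78 on the evening control arrays. ARRDC2, a less studied member that also binds NEDD4-type ligases, had log2 signals of 7.55 and 7.66 on the PCA arrays, against 7.78 and 7.76 on the evening control arrays. Their log2 fold changes of -0.21 and -0.17 had limma adjusted p values of 0.134 and 0.127. All 5 alpha-arrestins, TXNIP included, had an unadjusted p under 0.05, which 36.9% of all genes had after the PCA pollutants (22.5% on the lower side).

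After the primary pollutants, ARRDC4 was the ARRDC gene with the lowest value. Its log2 signals were 6.67 and 6.93 on the primary arrays, against 7.04 and 7.07 on the morning control arrays. The change of -0.25 (SE 0.10) had an unadjusted p of 0.0409 and an adjusted p of 0.561 in limma, so that it did not pass. The change was -0.12 without the first primary array and -0.39 without the second. For ARRDC4 the difference of the 2 responses was -0.063 with a 95% interval of -0.40 to 0.28. ARRDC1, ARRDC2 and ARRDC3 had log2 fold changes between -0.077 and -0.050 after the primary pollutants, each with an interval that holds 0. Scaling to the ribosomal protein genes turned those 3 values to slightly above 0.

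Of the 7 genes, 2 had an unadjusted p under 0.05 after the primary pollutants (TXNIP and ARRDC4), against 7.9% of all genes. The arrays did not overlap for 4, all lower (TXNIP, ARRDC2, ARRDC4 and MLXIP), against 21.7% of all genes. The difference between the PCA and primary responses was below 0 for all 7 but passed the test for none, against 0.439% of all genes, and only TXNIP had an unadjusted p under 0.05 (17.6% of all genes). The median difference over the 7 was -0.16, against -0.013 over all genes.

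**Figure D3:**
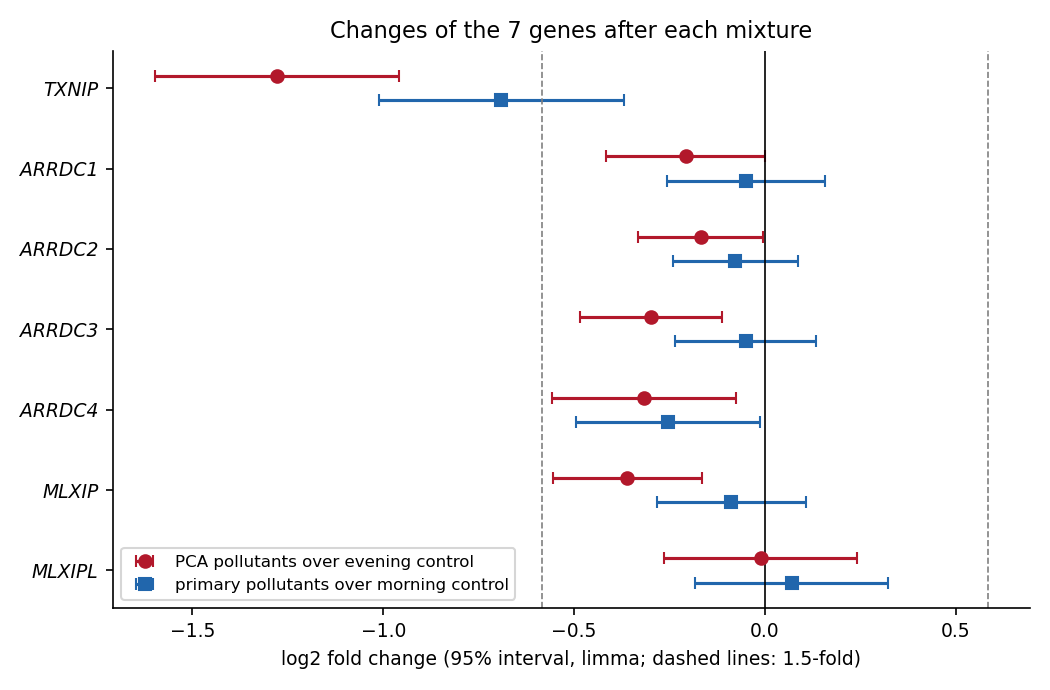
Log2 fold change of the 7 genes after the PCA pollutants (over the evening control) and after the primary pollutants (over the morning control), with 95% intervals from limma; dashed lines stand at 1.5-fold. TXNIP, at -1.28 and -0.69, is the only gene with a point beyond the dashed line.

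Neither upstream factor passed the test. MLXIP, which in most cell types is the main glucose-sensing partner of MLX, had log2 signals of 8.69 and 8.56 on the PCA arrays, against 8.92 and 9.05 on the evening control arrays. Its log2 fold change of -0.36 (SE 0.084, 95% interval -0.56 to -0.17) had a limma adjusted p of 0.0248 and at 1.28-fold stayed short of the fold limit. After the primary pollutants MLXIP was at 8.94 and 8.83, against 8.95 and 8.99 in the morning control, a change of -0.088 (limma adjusted p = 0.826) that turned to 0.0099 under scaling to ribosomal protein genes.

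MLXIPL, the form best known from liver and fat, had log2 signals of 6.64 and 6.77 on the PCA arrays, against 6.58 and 6.84 on the evening control arrays. The arrays overlapped, and the change of -0.011 had a 95% interval of -0.26 to 0.24. After the primary pollutants it was at 6.71 and 6.54, against 6.60 and 6.52 in the morning control, a change of 0.070 (95% interval -0.18 to 0.32). Its sign turned with the controls exchanged or pooled in both comparisons, and under ribosomal protein scaling after the PCA pollutants. MLX, the shared partner, had its values on the other side: its log2 signals were 9.20 and 9.02 on the PCA arrays, against 8.78 and 8.79 on the evening control arrays. The change of 0.33 (SE 0.081) had a limma adjusted p of 0.0303 and did not reach the fold limit. None of the 11 genes of the MLX and MAX network passed the test, and 2 had an unadjusted p under 0.05, MLX and MXD4 (-0.28, SE 0.094).

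Between the evening and morning controls the other genes differed by 0.013 (MLXIP) to 0.22 (ARRDC3) on the log2 scale, against 0.34 for TXNIP. All 7 differences were above 0 and none passed the test in limma (0% of all genes did), while TXNIP and ARRDC3 had an unadjusted p under 0.05 (4.97% of all genes). ARRDC3 was at 9.91 and 9.89 in the evening control and 9.75 and 9.61 in the morning control, a difference of 0.22 (limma adjusted p = 0.9996). The arrays did not overlap for TXNIP, ARRDC3 and ARRDC4, against 22.1% of all genes on that side. The PCA arrays of ARRDC3 were close to the morning control arrays, and against the morning control its PCA change was -0.078 in place of -0.30.

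Over the 8 arrays the signal of TXNIP ran most closely with ARRDC2 (Pearson r = 0.91), ARRDC4 (0.86) and ARRDC3 (0.83). It ran less closely with MLXIP (0.75) and ARRDC1 (0.75), and not with MLXIPL (0.0067). These values describe 8 arrays in 4 groups, and the points share the group differences already given. The range over the 8 arrays was 1.55 log2 units for TXNIP.

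The 5 genes with the profile most like that of TXNIP, by the root-mean-square difference of centred log2 signals over the 8 arrays among 17539 genes, were ERBB3, GASK1B, ADH6, C5 and TNFSF10. ERBB3, a receptor of the EGF receptor family, was nearest with a difference of 0.094 (r = 0.99) and a log2 fold change of -1.22 (SE 0.096) after the PCA pollutants, against -1.28 for TXNIP. TNFSF10, the death ligand TRAIL, was the last of them at 0.16 (r = 0.96). All 5 fell after the PCA pollutants, with log2 fold changes between -1.22 for ERBB3 and -1.05 for C5, the complement component, with limma adjusted p values of 0.000727 to 0.00276. With the controls exchanged C5 was at -0.58 and lost its call, and GASK1B (-0.69), ADH6 (-0.62) and TNFSF10 (-0.73) kept theirs at values over 1.5 times nearer 0. Likeness to a gene that fell favours genes that fell, so this is a description of the nearest profiles.

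**Figure D4:**
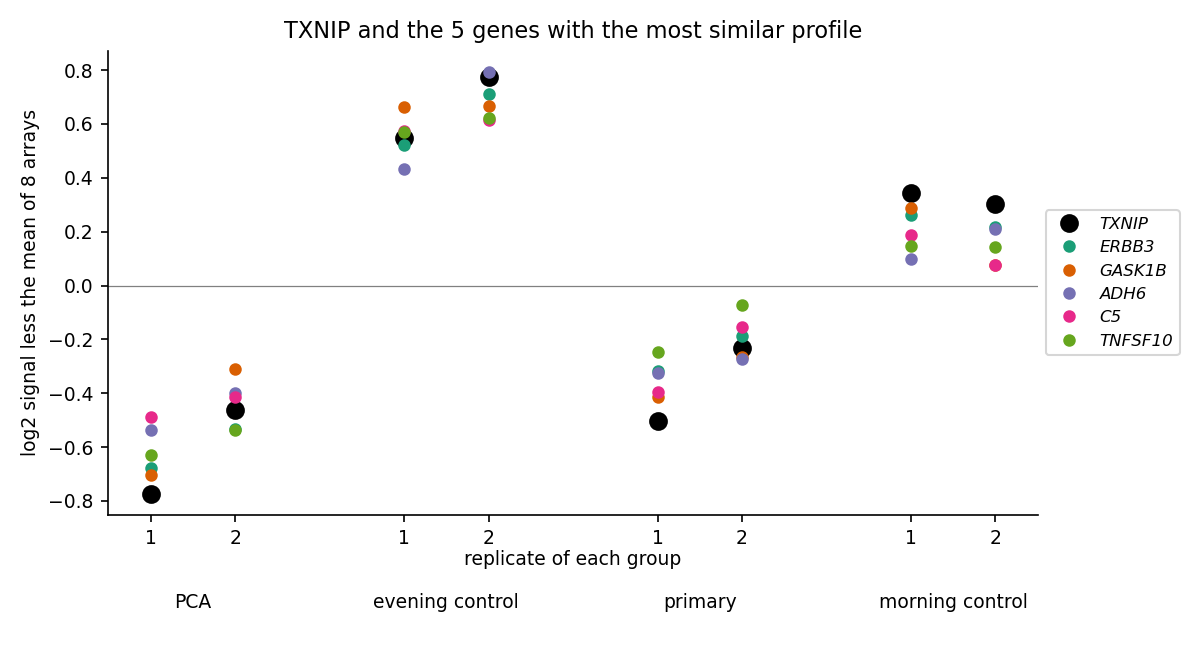
Log2 signal less the mean of the 8 arrays for TXNIP (large black points) and the 5 genes with the nearest profile, on each array of the 4 groups. All 6 genes are lowest in the PCA or primary arrays and highest in the evening control, with the morning control between.

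The lists that follow are counted after the PCA pollutants, when 2.66% of all genes were called lower, 0.876% higher and 36.9% had an unadjusted p under 0.05. Thioredoxin and the enzymes around it did not pass the test. Of 19 tested genes of the thioredoxin system, 0 passed in limma after the PCA pollutants and 9 had an unadjusted p under 0.05 (36.9% of all genes), and the median log2 fold change was -0.11, against -0.0017 for all genes. TXN, thioredoxin itself, was at -0.12 (SE 0.12), and TXNRD1, the cytosolic reductase that recharges it, at -0.24 (SE 0.072, limma adjusted p = 0.0522). The values farthest from 0 were those of the methionine sulfoxide reductases MSRB2 (-0.49, SE 0.066) and MSRB3 (-0.42, SE 0.082), which use thioredoxin to repair oxidized proteins, and of GLRX3 on the higher side (0.33, SE 0.083). SRXN1, which restores overoxidized peroxiredoxins, was at -0.23 (SE 0.068). The values of all 19 genes, between -0.49 and 0.33, lay above the interval of TXNIP.

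Alpha-arrestins bring cargo to the NEDD4 family of ubiquitin ligases through short PPxY motifs in their tails. Of the 9 NEDD4 family genes, 2 fell after the PCA pollutants (2.66% of all genes were called lower), 7 failed the test and the median log2 fold change was -0.24. NEDD4L, known for ubiquitinating sodium channels and other membrane proteins, had log2 signals of 8.21 and 8.18 on the PCA arrays, against 9.18 and 9.18 on the evening control arrays, a log2 fold change of -0.98 (SE 0.070, limma adjusted p = 0.000732). WWP1 fell by 0.60 on the log2 scale (SE 0.079, limma adjusted p = 0.0040), close to the fold limit, and its call was lost without the first evening control array (-0.55), under 3 of the 4 other scalings, and with the controls exchanged (-0.40) or pooled (-0.50). HECW1 (-0.53) and WWP2 (-0.31) did not reach the fold limit. HECW1 passed, as lower, under 2 of 22 alternatives, the run without a fold limit among them, and its lowest value was -0.59. ITCH, the ligase known to act on TXNIP itself, was at -0.24 (SE 0.082, limma adjusted p = 0.0763), and NEDD4 at -0.00049.

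Of 7 tested genes that carry an arrestin fold outside the alpha-arrestin family, ARRB1 (beta-arrestin 1, which turns off and internalizes G protein-coupled receptors) fell and 6 did not pass. Its log2 signals were 9.35 and 9.32 on the PCA arrays, against 10.05 and 10.03 on the evening control arrays, and the log2 fold change was -0.71 (SE 0.066, limma adjusted p = 0.00152). The call was lost under cyclic loess (-0.57), under scaling to ribosomal protein genes (-0.57) and with the controls exchanged (-0.53). VPS26A, a retromer subunit, was at -0.37, RGP1 at -0.34 and VPS26B at -0.23, none past the test. ARRDC5, the remaining alpha-arrestin, and ARRB2 had no probe set of their own among those used here.

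The other genes known to answer MLXIP and MLXIPL with glucose were spread on both sides of 0. Of 19 tested, 2 fell, 0 rose and 17 did not pass in limma, beside 2.66% of all genes called lower and 0.876% higher. An unadjusted p under 0.05 was found for 11, beside 36.9% of all genes, and the median log2 fold change was 0.019. Those that fell, SCD (-0.67, SE 0.079) and ELOVL6 (-0.64, SE 0.11), make and lengthen fatty acids, and ACACA, which feeds the same pathway, was at -0.52 (SE 0.077) without reaching the fold limit. With single arrays left out ACACA ran from -0.60 to -0.44, which crosses that limit. FGF21, a secreted metabolic hormone, was on the higher side at 0.31 (SE 0.073). On that side FGF21, THRSP, G6PC1 and HK2 had low log2 signals, 5.09 to 6.44 over the 8 arrays. KLF10 and PDK4, also on that side, were at 9.81 to 10.91. On the lower side SCD, ACACA, ELOVL6, ACLY, FASN and G6PC3 were at 8.32 to 12.26. The part of low signal in the spread and median of this list was not tested. ELOVL6 lost its call without the first evening control array (-0.58) or the second PCA array (-0.50), and with the controls pooled. SCD and ELOVL6 both lost theirs under 3 of the 4 other scalings and with the controls exchanged. Of the 20 genes whose windows hold the TXNIP type of element, 18 were tested: TXNIP fell and 17 did not pass, with log2 fold changes between -0.45 (TIGD1) and 0.33 (MYL5).

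Glucose transporters and glycolytic enzymes, the processes TXNIP is known to restrain, gave 2 lower genes, 0 higher and 24 that did not pass, of 26 tested, with 8 at an unadjusted p under 0.05. PFKFB3, which makes the sugar phosphate that drives glycolysis, fell by 0.87 on the log2 scale (SE 0.071, limma adjusted p = 0.00108), and SLC2A12, a lesser glucose transporter, fell by 0.69 (SE 0.082, limma adjusted p = 0.00278), a call lost under scaling to ribosomal protein genes. PFKP, a phosphofructokinase of the pathway's committed step, was on the higher side at 0.55 (SE 0.084, limma adjusted p = 0.00676) and short of the fold limit. It passed, as higher, under repeated quantile normalization (0.65), cyclic loess (0.68), ribosomal protein scaling (0.69) and without the second PCA array (0.62). PFKL, of the same enzyme family, was at -0.34 (SE 0.085). SLC2A1 (GLUT1), the main transporter of most cell lines and a known cargo of TXNIP, was at 0.10 (SE 0.077, limma adjusted p = 0.365). Among 11 genes for cargo and vesicle partners of the alpha-arrestins, 0 passed in limma and 3 had an unadjusted p under 0.05. SLC11A2, the iron transporter that ARRDC1 and ARRDC4 are known to control, was at -0.46, ITGB4, a cargo of ARRDC3, at 0.48, and INSR, the insulin receptor, at -0.40. ITGB4 passed, as higher, under 3 of 22 alternatives, the run without a fold limit among them, and reached 0.62 at most.

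Among 21 genes for kinases and factors that act on TXNIP, 0 passed in limma after the PCA pollutants and 8 had an unadjusted p under 0.05, beside 36.9% of all genes. PRKAB2, a subunit of the energy-sensing kinase AMPK, which marks TXNIP protein for destruction, was at -0.42 (SE 0.067), PRKAG1, of the same kinase, at -0.30 (SE 0.082), PPARA, a fatty acid-sensing receptor, at -0.41 (SE 0.089), and NR3C1, the glucocorticoid receptor, at -0.32 (SE 0.078). Of 13 tested genes known to be induced by glucocorticoids, DUSP1, a phosphatase that acts on stress kinases, rose by 0.72 (SE 0.087, limma adjusted p = 0.00302), none fell, and 5 had an unadjusted p under 0.05. Against the morning control DUSP1 did not reach the fold limit. ANGPTL4, a lipase inhibitor, was at 0.46 (SE 0.10, limma adjusted p = 0.0204), SGK1 at 0.30 (SE 0.095) and TFCP2L1 at -0.22 (SE 0.075), none of them past the test. ANGPTL4 passed, as higher, under 2 of 22 alternatives, the run without a fold limit among them, and reached 0.60 at most. The median of this list was 0.15, with values between -0.22 (TFCP2L1) and 0.72 (DUSP1). A part of glucocorticoids in the values of TXNIP and the 4 ARRDC genes, all below 0, was not tested.

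**Figure D5:**
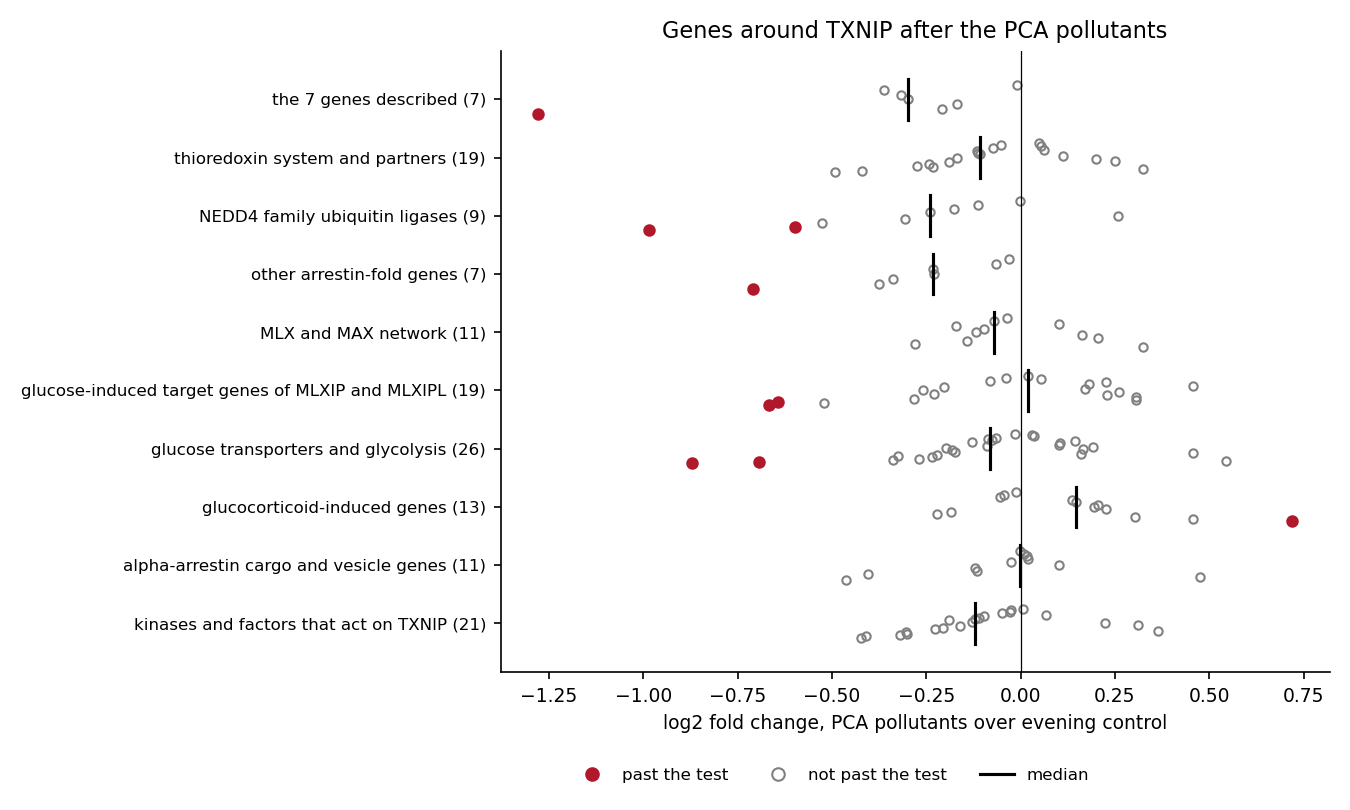
Log2 fold change after the PCA pollutants over the evening control for every tested gene of the 7 genes and 9 lists, 1 row each with its number of genes, with filled points for genes past the test and a bar at the median. TXNIP, at -1.28, is the lowest point of all rows, followed by NEDD4L at -0.98.

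After the primary pollutants no gene of any of the 9 lists was called, and the list medians lay between -0.070 and 0.013. The 7 genes had a median of -0.077 there, against -0.0072 over all genes, and of -0.30 after the PCA pollutants.

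A signal of 30 did not separate the marker lists. All 6 epithelial markers, all 4 endothelial markers and all 6 measured type II markers were above it on every array. Of the others, 3 of 4 leukocyte markers and 4 of 5 fibroblast markers reached it on at least 1 array. PTPRC, which defines leukocytes, and LUM of the fibroblast list never reached it, while CD68 was at 708 to 924 and COL1A1 at 248 to 347. No leukocyte or fibroblast marker was called after the PCA pollutants. Of 7 type II markers 6 had a probe set of their own, and NKX2-1, a factor that defines distal lung epithelium, was low at 35.5 to 57.4. The summed epithelial signal was 26978 to 27880 on the PCA arrays and 30011 to 31492 on the evening control arrays. It was 25442 to 31997 on the primary arrays and 31909 to 32973 on the morning control arrays. Most of this sum came from KRT8 (11540 to 13271) and KRT18 (11587 to 17341), so it says little of the other markers. Of the 6 markers 1, CDH1, fell after the PCA pollutants (-1.11). Summed endothelial signal was 229 to 234 on the PCA arrays and 202 to 208 on the evening control arrays, with none of its 4 markers called. The spread of all log2 signals on an array was 1.98 to 1.99 (SD) on the PCA arrays and 2.04 to 2.07 on the other 6. The part of these shifts in the values of the 7 genes was not tested.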

How the data were processed

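The authors deposited log2 signals after robust multichip averaging, and the submitters' processing notes name Partek 6.4. Of 28869 probe sets, 19310 carry 1 gene symbol, 1752 several and 7807 none in the platform annotation given. The 18377 genes are each represented by the single-symbol probe set with the highest mean (685 had several). Testing required a signal of 30 or more on 1 or more arrays of a comparison. The 4 groups were fitted together on 8 arrays with limma 3.58.1 under R 4.3.3 (4 residual degrees of freedom before moderation), and p-values were adjusted by Benjamini-Hochberg over all probe sets tested. Calls needed both an adjusted p under 0.05 and a 1.5-fold change, with no fold limit on the difference of responses. Intervals are 95%.

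The members and lists were chosen with earlier results of these data known. The genes named are the 7 members, MLX, ARRDC5, the genes of smallest p in each list (up to 4, those with an unadjusted p under 0.05) and the 5 nearest profiles to TXNIP; others, such as TXN, TXNRD1, ITCH, NEDD4, SLC2A1, ARRB2, TIGD1 and MYL5, were named after their values were seen. Simulated arrays had independent normal noise around a common mean for each probe set, with known changes in a small share of them. On arrays simulated for the PCA comparison, 86.1% of 1.75-fold, 100% of 2.5-fold and 97.4% of 4-fold changes were recovered. The simulation held no effects shared by the arrays of a group, so these rates need not hold for the real arrays. Of the 25003 probe sets tested in that simulation, changed ones included, 5 unchanged ones were called. Promoter windows came from RefSeq (GRCh38.p14). Alternatives covered the signal minimum, normalization, prior, arrays in the fit, test, fold limit, probe-set summary, replicate block, controls and each array left out. The number of arrays limits the precision: log2 fold changes had a median standard error of 0.091. Plots used matplotlib 3.10.9 under Python 3.11.15.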

Additional observations from a re-analysis of the deposited data

Results flagged for a closer look

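The PCA response differed from the primary response, by limma's test of the difference across all genes, for 4 of the genes named. The difference in log2 fold change was -0.81 for NEDD4L, -0.79 for PFKFB3, -0.73 for ARRB1 and -0.87 for TNFSF10, each with an adjusted p of 0.0359. None of the 7 members was among them. With no minimum signal the adjusted p was 0.0524 for all 4, and with the replicate number as a block it was 0.0852. All 4 lost significance with any 1 of the 8 arrays left out, where the adjusted p was at least 0.0603.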

How the results depend on the processing

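After the PCA pollutants, the count of members called was 1 and became 0 with limma's treat against the 1.5-fold limit, where TXNIP kept its log2 fold change of -1.28, and 3 with no fold limit, which adds ARRDC3 and MLXIP. After the primary pollutants it was 0 and became 1 under the unadjusted analysis of variance (TXNIP, -0.69). No other alternative changed these counts, and with each array left out in turn they were 1 and 0, with TXNIP at -1.43 to -1.12 and at -0.83 to -0.55. Limma's treat also ended the calls of NEDD4L, WWP1, ARRB1, SCD, ELOVL6, PFKFB3, SLC2A12, DUSP1, GASK1B, ADH6 and C5, but not those of ERBB3 and TNFSF10. Scaling to 54 ribosomal protein genes raised the median of all genes by 0.14 after the PCA pollutants, with 432 higher and 201 lower genes called in place of 153 and 464; TXNIP stayed lower, at -1.14, and was still called.

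Values that changed sign belonged to members with changes near 0. Under ribosomal protein scaling MLXIPL was 0.13 after the PCA pollutants, and after the primary pollutants ARRDC1 was 0.048, ARRDC2 0.021, ARRDC3 0.048 and MLXIP 0.0099. With controls exchanged MLXIPL was 0.14 after the PCA and -0.084 after the primary pollutants, and with controls pooled 0.067 and -0.00695. With single arrays left out, MLXIPL ran from -0.14 to 0.12 after the PCA pollutants and from -0.015 to 0.16 after the primary pollutants, where ARRDC1 ran from -0.11 to 0.014 and ARRDC3 from -0.12 to 0.017. In the difference of responses ARRDC4 ran from -0.19 to 0.068 and MLXIPL from -0.21 to 0.047, and between evening and morning control ARRDC1 ran from -0.043 to 0.14 and MLXIP from -0.048 to 0.074. The cause of these turns was not tested.

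Over all probe sets, same-numbered arrays did not deviate together (correlations of -0.00011 for PCA and evening control and -0.081 for primary and morning control). A correlation over all probe sets cannot show whether single genes share an effect of the number. For TXNIP after the PCA pollutants the standard error was 0.14 without the replicate block and 0.10 with it. With the replicate block 1 member was called after the PCA pollutants and 0 in the other comparisons, and the genes with a difference of responses numbered 2 in place of 77.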
